A study of Mus musculus with 16 samples.

Results

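The LDL receptor gene family was followed through the hippocampus of 2 mouse lines on 2 diets, with Lrp2 at its centre. The 10 genes are Lrp1, Lrp1b, Lrp2, Lrp3, Lrp4, Lrp5, Lrp6, Lrp8, Vldlr and Sorl1, of 17178 genes named on the arrays. A probe belonged to a gene when its RefSeq transcript did, and 8 of the 10 genes had a probe here, 13 probes in all. Lrp6 and Sorl1 were not analysed here. The family was chosen by the values of Lrp2 in these same arrays, which had already been seen to differ between the lines and between the diets, so the values of Lrp2 are described without a test.

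The groups were male SAM/P-8 mice on CE-2 rodent diet with 0.1% CCH, SAM/P-8 mice on CE-2 alone, SAM/R-1 mice on CE-2 with 0.1% CCH, and SAM/R-1 mice on CE-2 alone. CCH is coral calcium hydride. The mice were 8 weeks old at the start and ate the diet for 8 weeks. Both are lines of the senescence-accelerated mouse, derived from AKR/J stock per the labels, the P lines being known as senescence-prone and the R lines as senescence-resistant. Each of the 4 groups had 4 one-colour arrays of total RNA. The labels number the replicates without saying that each was a different animal, and p-values cover no more than the spread among these arrays.

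Receptors of this family are large membrane proteins that take up extracellular ligands and carry them to endosomes, and several also pass signals into the cell. Lrp2, or megalin, is an endocytic receptor of epithelia such as the kidney proximal tubule, the choroid plexus and the ependyma, where it takes up hormones, vitamin carriers and lipoproteins. In the brain, Lrp1 takes up lipoproteins that carry ApoE, Lrp8 and Vldlr receive reelin, Lrp5 is a co-receptor of Wnt ligands, and Lrp4 binds agrin.

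The 4 slides held 1 group each, which means that slide and group cannot be told apart here. By the scanner's flag, an array had 28920 to 33333 spots well above background out of 43379 that were not controls. The number of arrays limits how precise the values are. All 13 hippocampal neuron markers measured were well above background on all 16 arrays. Marker scores, the mean log2 level of a cell type's genes after centring each gene over the arrays, showed arrays that stood apart. The striatum score was 3.66 in SAM/P-8 CCH replicate 4, against -0.69 to 0.21 over the other 15 arrays, and choroid plexus scores spanned -2.57 to 1.61 over the 16 arrays. Scores of 14 endothelial and pericyte markers were 0.22 to 0.72 in SAM/P-8 arrays against -0.73 to -0.12 in SAM/R-1 arrays, without overlap. Of these markers, 12 were higher in SAM/P-8 than SAM/R-1 on the control diet and 6 on the CCH diet, at a limma adjusted p under 0.05. Over all genes, 12.8% passed on the control diet and 12.7% on CCH, in either direction. Of the 14 markers, 13 were well above background on all 16 arrays. The remaining marker was so on 8 of 16 and was kept only through SAM/P-8, where it is higher. It enters the scores and the counts on both diets. Scores without it were not computed.

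Lrp2 signal was lowest in SAM/P-8 mice on CCH, intermediate in SAM/P-8 mice on the control diet, and highest in SAM/R-1 mice on either diet. The levels that follow are log2 signals minus the 75th percentile of their array, and they compare one probe between arrays, never one gene with another. On probe A_52_P285470, well above background on all 16 arrays, the SAM/P-8 CCH arrays read -4.19, -4.15, -4.29 and -4.44. The SAM/P-8 control arrays read -3.99, -3.61, -3.63 and -3.74. All 4 arrays of SAM/P-8 mice on CCH lay below all 4 of SAM/P-8 mice on the control diet. The SAM/R-1 CCH arrays read -3.13, -3.04, -3.15 and -3.00, and the SAM/R-1 control arrays -3.14, -2.99, -3.37 and -3.29. Every SAM/R-1 array lay above every SAM/P-8 array, and the diet groups of SAM/R-1 overlapped.

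In group means ± SD (n = 4 each), Lrp2 stood at -4.27 ± 0.13 in SAM/P-8 CCH arrays, -3.74 ± 0.18 in SAM/P-8 control arrays, -3.08 ± 0.07 in SAM/R-1 CCH arrays and -3.20 ± 0.17 in SAM/R-1 control arrays. SAM/P-8 minus SAM/R-1 was -1.19 ± 0.10 (SE) on CCH, a 2.28-fold lower signal, and -0.54 ± 0.10 on the control diet. CCH minus control was -0.53 ± 0.10 in SAM/P-8 and 0.12 ± 0.10 in SAM/R-1. The difference between these diet differences was -0.65 ± 0.14. With normexp background correction in place of the scanner's, the strain differences were -0.78 on CCH and -0.35 on the control diet, and the diet differences -0.11 in SAM/P-8 and 0.32 in SAM/R-1. These differences share arrays: the SAM/P-8 CCH group enters the strain difference on CCH, the diet difference in SAM/P-8 and their combination alike. In whole tissue, fewer cells of a type and less RNA per cell cannot be told apart. The strain differences given here rest on 1 probe. A sequence variant under it and a difference in level between the lines cannot be told apart either.

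The other usable Lrp2 probe, A_51_P322000, was dimmer. It was well above background on 8 of 8 SAM/R-1 arrays and on 0 of 8 SAM/P-8 arrays, so it was kept only through the line in which it is brighter, and its order between the lines is a description that supports nothing. Its readings were -5.84, -5.89, -5.77 and -6.15 in SAM/P-8 CCH arrays and -5.56, -5.53, -5.47 and -5.82 in SAM/P-8 control arrays. In SAM/R-1 they were -5.00, -5.04, -4.97 and -4.81 on CCH and -4.99, -4.68, -5.02 and -5.16 on the control diet. The lines did not overlap on either diet, while the 2 diet groups of SAM/P-8 did. As a further description, each SAM/P-8 reading below its array's lowest signal well above background was raised to that signal. Lrp2 by this probe was then 1.84-fold lower in SAM/P-8 than SAM/R-1 on CCH, with measured means of -5.91 and -4.96. On the control diet it was then 1.47-fold lower, with measured means of -5.60 in SAM/P-8 and -4.96 in SAM/R-1. Most SAM/P-8 readings lay above that signal without being flagged well above background, so these folds are not lower bounds. The measured diet difference in SAM/P-8 was -0.32 ± 0.11, between values not well above background on either side, and in SAM/R-1 it was 0.00 ± 0.11.

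**Figure D1:**
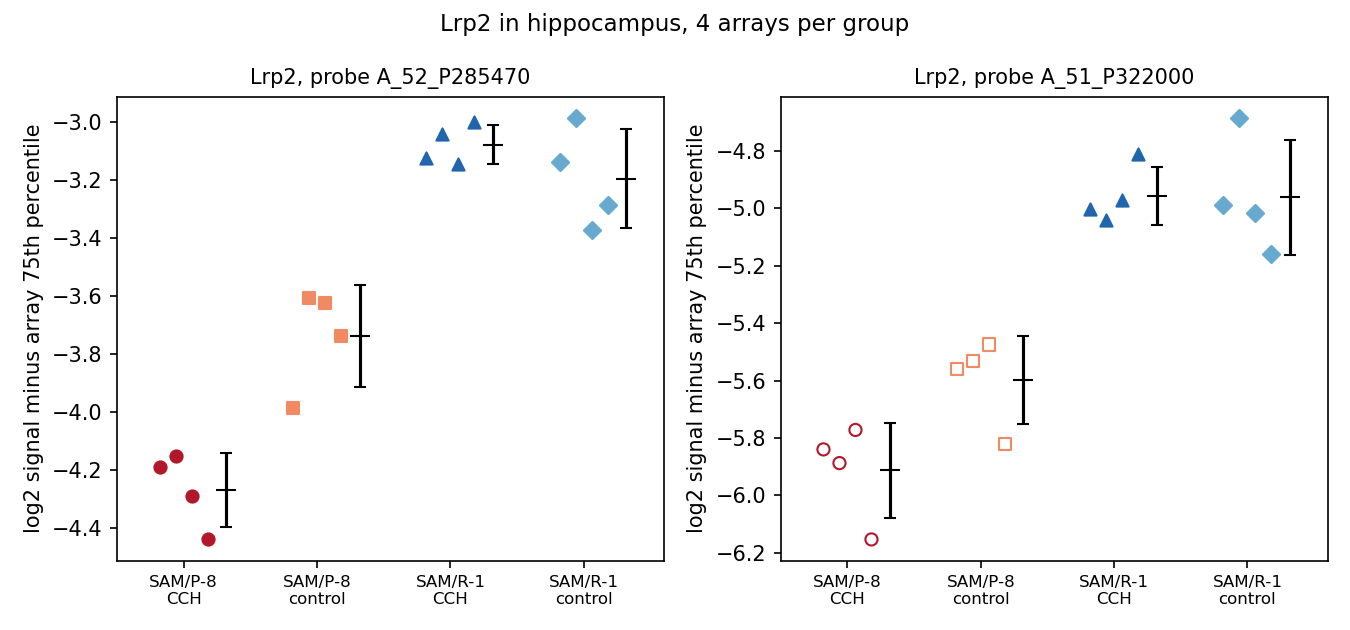
Log2 signal minus the array's 75th percentile (y axis) of the 2 Lrp2 probes in the 4 groups (x axis), 1 point per array, with the group mean and SD beside the points. Open symbols mark arrays where it was not well above background. On the left-hand probe the SAM/P-8 CCH arrays lie between -4.44 and -4.15 and the SAM/R-1 arrays between -3.37 and -2.99.

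The remaining Lrp2 probes, A_51_P174921 and A_52_P460882, were well above background on 3 and 1 of 16 arrays and entered no fit. A_51_P174921 ranged from -8.27 to -4.62 in SAM/P-8 CCH arrays, -8.09 to -5.11 in SAM/P-8 control arrays, -9.08 to -7.17 in SAM/R-1 CCH arrays and -8.45 to -4.36 in SAM/R-1 control arrays. A_52_P460882 ranged from -8.34 to -8.10 in SAM/P-8 CCH arrays, -8.14 to -7.48 in SAM/P-8 control arrays, -8.97 to -7.45 in SAM/R-1 CCH arrays and -8.26 to -5.75 in SAM/R-1 control arrays. On neither probe did the lines separate on either diet.

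Because Lrp2 is made by choroid plexus and ependyma, markers of both were set beside it. The choroid plexus score was 0.96, 0.96, -2.57 and 0.82 in SAM/P-8 CCH arrays, and 1.00, 1.61, 1.09 and -1.84 in SAM/P-8 control arrays. It was 0.81, -2.42, -1.95 and 0.74 in SAM/R-1 CCH arrays, and 0.69, 1.23, 0.11 and -1.24 in SAM/R-1 control arrays. Every group held arrays rich and arrays poor in plexus RNA. Of the 16 plexus genes measured 0 passed the limma test in any of the 5 comparisons, with 0 at an unadjusted p under 0.05 as well. Over all genes 12.7% passed for the strain difference on CCH and 12.8% on the control diet. The shares for CCH were 0.788% in SAM/P-8 and 0.104% in SAM/R-1, and that for the interaction was 0.134%. The list medians were 0.78 for the strain difference on CCH and 0.28 on the control diet. For CCH they were -0.40 in SAM/P-8 and -0.86 in SAM/R-1, and 0.53 for the interaction. With such a spread within groups, 0 calls do not show that plexus content was equal between them. The signal of Ttr, which encodes the thyroid hormone and retinol carrier transthyretin secreted by the plexus, spanned 61.5-fold within SAM/P-8 CCH arrays, 27.4-fold within SAM/P-8 control arrays, 75.9-fold within SAM/R-1 CCH arrays and 8.63-fold within SAM/R-1 control arrays. Over the same arrays Lrp2 spanned 1.22-fold, 1.30-fold, 1.11-fold and 1.31-fold in that order of groups. The arrays poorest in plexus RNA, SAM/P-8 CCH replicate 3 and SAM/R-1 CCH replicate 2, read -4.29 and -3.04 for Lrp2, inside the range of their groups. The part of plexus RNA in the Lrp2 differences was not tested.

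**Figure D2:**
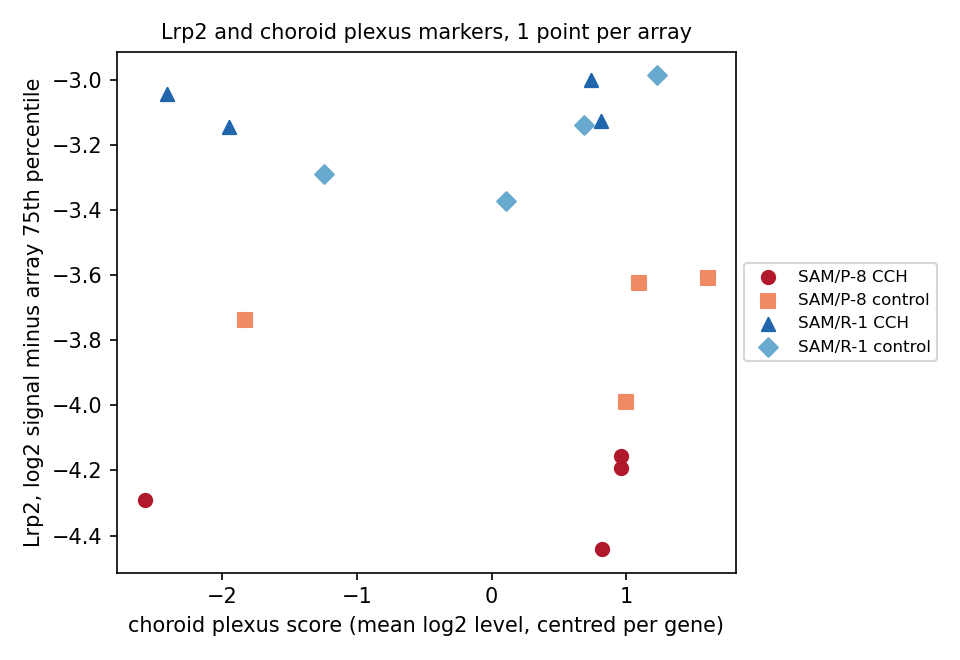
Lrp2 level by probe A_52_P285470 (y axis, log2 signal minus the array's 75th percentile) against the choroid plexus score (x axis, mean of 16 centred log2 levels), 1 point per array. Scores run from -2.57 to 1.61 while each group keeps to its own band of Lrp2 levels, apart from the 2 SAM/R-1 groups, which overlap.

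Of 11 ependymal genes, 0 passed the limma test in any comparison, beside the shares of all genes given for the plexus list. At an unadjusted p under 0.05 there was 1 for each of the 2 strain differences. Ependyma scores lay between -0.70 and 0.12 in SAM/P-8 CCH arrays, -0.22 and 0.25 in SAM/P-8 control arrays, -0.33 and 0.41 in SAM/R-1 CCH arrays, and -0.37 and 0.60 in SAM/R-1 control arrays, with all groups overlapping. The score of red blood cell markers, over 5 genes, was -0.51, -0.30, 0.07 and -0.03 in SAM/P-8 CCH arrays and 1.37, 2.05, -0.12 and 0.07 in SAM/P-8 control arrays, with replicates 1 and 2 of the control group above all others. It lay between -0.83 and -0.21 in SAM/R-1 CCH arrays and between -0.44 and 0.23 in SAM/R-1 control arrays. For CCH in SAM/P-8, 0 of the 5 genes passed the limma test, beside 0.788% of all genes. At an unadjusted p under 0.05 there were 4, with a list median of -1.10. The share of all genes at that unadjusted p was not counted. The part of these cells in the Lrp2 difference was not tested. That difference was -0.61 without SAM/P-8 control replicate 1 and -0.48 without replicate 2.

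Without SAM/P-8 CCH replicate 4, the array with the high striatum score, the Lrp2 diet difference in SAM/P-8 was -0.47 and the strain difference on CCH was -1.13.

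Lrp1, the broadly expressed endocytic receptor of neurons, glia and vessels, showed no difference past the test. It read 3.54, 3.47, 3.50 and 3.40 in SAM/P-8 CCH arrays and 3.53, 3.28, 3.54 and 3.38 in SAM/P-8 control arrays. It read 3.49, 3.66, 3.49 and 3.50 in SAM/R-1 CCH arrays and 3.41, 3.50, 3.50 and 3.47 in SAM/R-1 control arrays. The groups overlapped in every comparison. SAM/P-8 minus SAM/R-1 was -0.06 ± 0.06 on CCH and -0.04 ± 0.06 on the control diet, and CCH minus control was 0.04 ± 0.06 in SAM/P-8 and 0.07 ± 0.06 in SAM/R-1, with limma adjusted p from 0.577 to 0.767.

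Lrp1b, a close relative of Lrp1 with slow endocytosis, was too dim to test. Its 1 probe was well above background on 1 array of SAM/P-8 CCH, 0 of SAM/P-8 control, 3 of SAM/R-1 CCH and 2 of SAM/R-1 control. Its signals ranged from -6.60 to -5.77 in SAM/P-8 CCH arrays, -6.94 to -6.04 in SAM/P-8 control arrays, -6.35 to -5.67 in SAM/R-1 CCH arrays and -6.06 to -5.59 in SAM/R-1 control arrays.

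Lrp4, the agrin receptor of the neuromuscular junction and a modulator of Wnt signalling, was lower in SAM/P-8 than SAM/R-1 on the control diet. The SAM/P-8 CCH arrays read 0.22, 0.03, 0.17 and 0.23 and the SAM/P-8 control arrays -0.02, -0.03, -0.02 and 0.21. The SAM/R-1 CCH arrays read 0.36, 0.28, 0.50 and 0.28 and the SAM/R-1 control arrays 0.26, 0.24, 0.23 and 0.40. The lines did not overlap on either diet, though SAM/P-8 control replicate 4, at 0.21, lay just below the lowest SAM/R-1 control array, at 0.23. The group means ± SD (n = 4 each) were 0.16 ± 0.09 in SAM/P-8 CCH arrays, 0.04 ± 0.12 in SAM/P-8 control arrays, 0.36 ± 0.10 in SAM/R-1 CCH arrays and 0.28 ± 0.08 in SAM/R-1 control arrays.

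On the control diet the Lrp4 difference was -0.25 ± 0.07, a 1.19-fold lower signal in SAM/P-8 (limma adjusted p = 0.0333). On CCH it was -0.19 ± 0.07 and did not pass (adjusted p = 0.0897), and the 2 differences were not shown to differ, with 0.05 ± 0.10 between them (adjusted p = 0.974). CCH minus control was 0.13 ± 0.07 in SAM/P-8 (adjusted p = 0.350) and 0.07 ± 0.07 in SAM/R-1 (adjusted p = 0.752). The call on the control diet was fragile. It held in 9 of 16 fits that each left out 1 array, with adjusted p from 0.00938 to 0.0926, and was lost without SAM/P-8 control replicate 1, 2 or 3 or without any one SAM/R-1 control array. It was also lost with normexp background correction (adjusted p = 0.160), with the median of each array as its scale (adjusted p = 0.0657) and without the filter on dim probes (adjusted p = 0.0534). Lrp4 had 1 probe, so a sequence variant under it and a difference in level between the lines cannot be told apart.

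Lrp5, the Wnt co-receptor, had values that overlapped between all groups. It read -1.35, -1.48, -1.78 and -1.41 in SAM/P-8 CCH arrays and -1.45, -1.51, -1.63 and -1.65 in SAM/P-8 control arrays. In SAM/R-1 it read -1.53, -1.85, -1.79 and -1.70 on CCH and -1.75, -1.42, -1.70 and -1.67 on the control diet. SAM/P-8 minus SAM/R-1 was 0.21 ± 0.10 on CCH (limma adjusted p = 0.185) and 0.08 ± 0.10 on the control diet (adjusted p = 0.683). SAM/P-8 CCH replicate 3 was the lowest of its group, and without it the difference on CCH was 0.30 with an adjusted p of 0.0467. CCH minus control was 0.05 ± 0.10 in SAM/P-8 and -0.08 ± 0.10 in SAM/R-1.

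The reelin receptors Lrp8, also known as ApoER2, and Vldlr showed no difference past the test on any probe. Vldlr read 2.47, 2.41, 2.28 and 2.52 in SAM/P-8 CCH arrays and 2.33, 2.54, 2.29 and 2.43 in SAM/P-8 control arrays. It read 2.42, 2.58, 2.44 and 2.46 in SAM/R-1 CCH arrays and 2.49, 2.47, 2.40 and 2.50 in SAM/R-1 control arrays, so that all 4 groups overlapped. SAM/P-8 minus SAM/R-1 was -0.06 ± 0.07 on CCH and -0.07 ± 0.07 on the control diet, and CCH minus control was 0.02 ± 0.07 in SAM/P-8 and 0.01 ± 0.07 in SAM/R-1.

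Lrp8 had 3 usable probes. On the brightest, A_51_P445765, the SAM/P-8 CCH arrays read -0.05, -0.11, -0.02 and -0.37 and the SAM/P-8 control arrays -0.10, -0.12, -0.03 and -0.10. The SAM/R-1 CCH arrays read -0.14, -0.18, -0.14 and -0.19 and the SAM/R-1 control arrays -0.22, -0.24, -0.16 and -0.08. The lowest value of SAM/P-8 CCH was replicate 4, the array with the high striatum score. The strain differences on this probe were 0.02 ± 0.07 on CCH and 0.09 ± 0.07 on the control diet.

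The Lrp8 probes did not give the same diet difference in SAM/P-8. CCH minus control there was -0.05 ± 0.07 on A_51_P445765 (limma adjusted p = 0.718), 0.31 ± 0.11 on A_51_P145041 (adjusted p = 0.160) and 0.17 ± 0.11 on A_52_P279687 (adjusted p = 0.423). In SAM/R-1 the same probes gave 0.01 ± 0.07, 0.11 ± 0.11 and 0.21 ± 0.11, with adjusted p from 0.539 to 0.961. Whether the 3 probes differ from each other was not tested.

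Lrp3, a distant member whose ligands are little known, read 1.42 to 1.61 in SAM/P-8 CCH arrays, 1.38 to 1.52 in SAM/P-8 control arrays, 1.45 to 1.61 in SAM/R-1 CCH arrays and 1.47 to 1.60 in SAM/R-1 control arrays. Its strain differences were -0.04 ± 0.06 on CCH and -0.07 ± 0.06 on the control diet, and its diet differences 0.03 ± 0.06 in SAM/P-8 and 0.00 ± 0.06 in SAM/R-1.

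**Figure D3:**
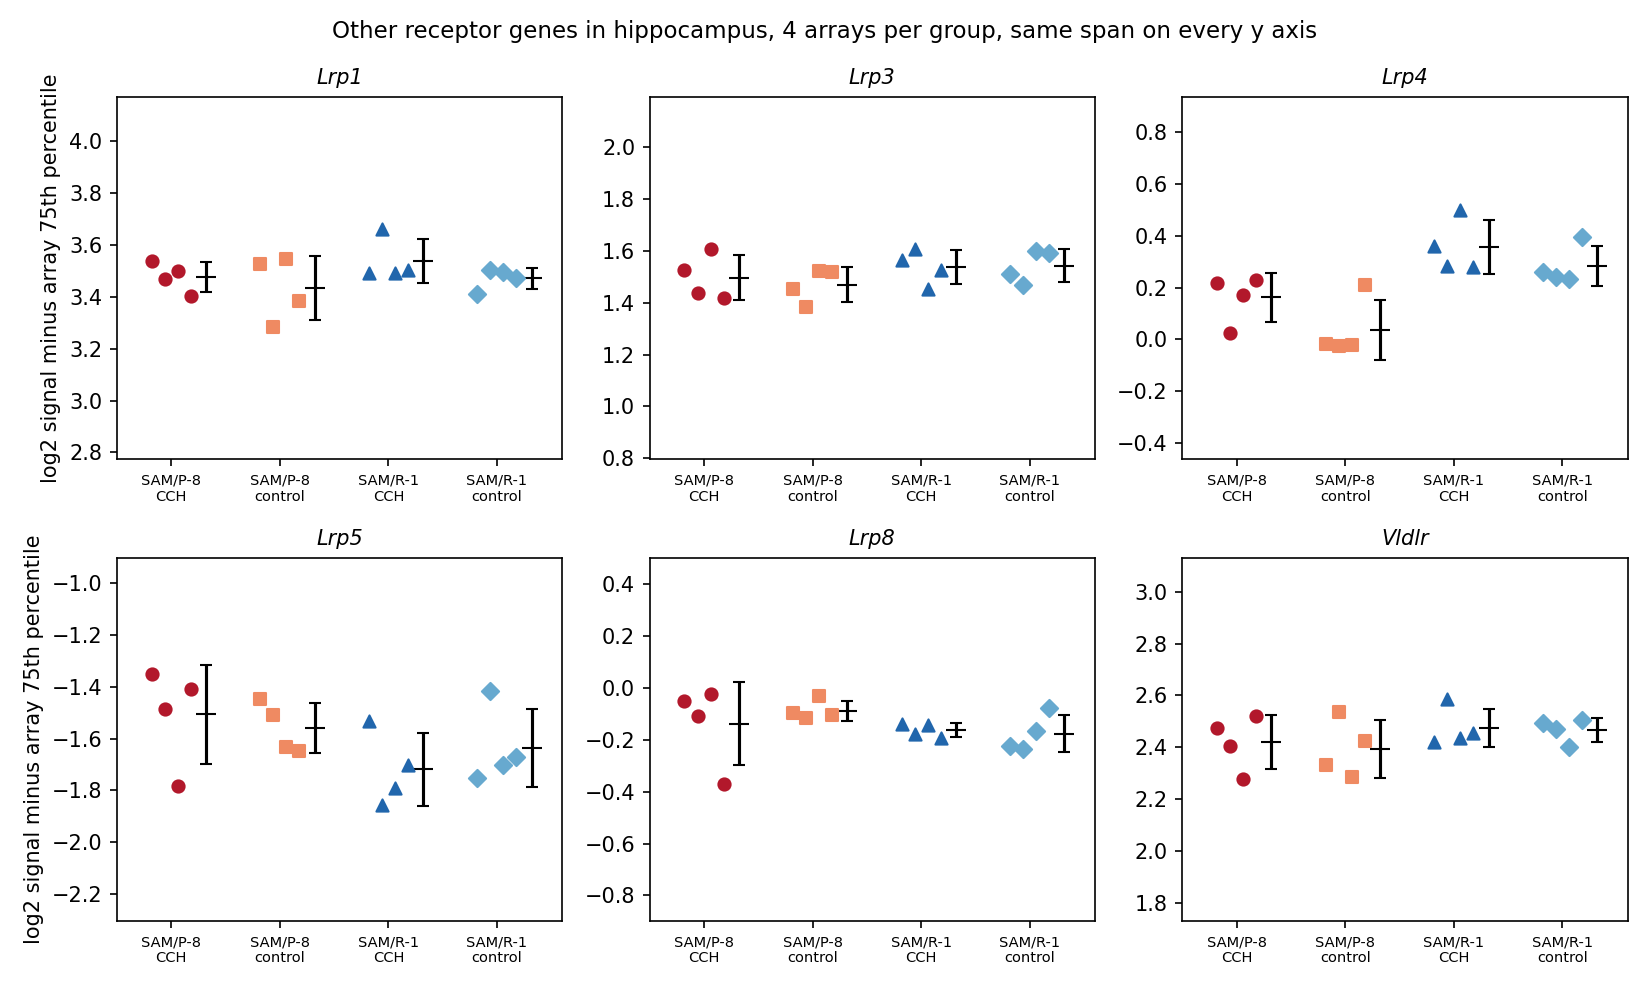
Log2 signal minus the array's 75th percentile (y axes, all of the same span) of 6 further receptor genes in the 4 groups (x axes), 1 point per array with the group mean and SD, each gene by its brightest probe. The lines separate for Lrp4, with SAM/P-8 at 0.23 or below and SAM/R-1 at 0.23 or above, and overlap for the others.

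Over the family, 7 genes entered the fit, and the counts that follow leave out Lrp2, which was picked on these values. Of the other 6, 0 passed a limma adjusted p of 0.05 between the lines on CCH, with 1 at an unadjusted p under 0.05, where 12.7% of all 13458 genes tested passed in either direction. Lrp4 was the 1 of the 6 whose lines did not overlap on CCH, as was the case for 20.6% of all genes. On the control diet 1 of the 6, Lrp4, was lower, against 12.8% of all genes, and it was also the 1 whose lines did not overlap, against 19.0%. These shares of the 6 are near those of all genes, and nothing particular to the family is read from them. For CCH against control in SAM/P-8 0 of the 6 passed, against 0.788%, with 0 at an unadjusted p under 0.05, and 0 did not overlap, against 9.66%. In SAM/R-1 0 of the 6 passed, against 0.104%, with 0 at an unadjusted p under 0.05, and 0 did not overlap, against 9.90%. For the strain by diet interaction 0 of the 6 passed, against 0.134%, with 0 at an unadjusted p under 0.05.

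The median difference over the 6 genes was -0.05 for the strain difference on CCH, beside -0.02 over all genes, and -0.05 on the control diet, beside -0.01. For CCH against control it was 0.03 in SAM/P-8 and 0.01 in SAM/R-1, beside -0.02 over all genes in both.

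**Figure D4:**
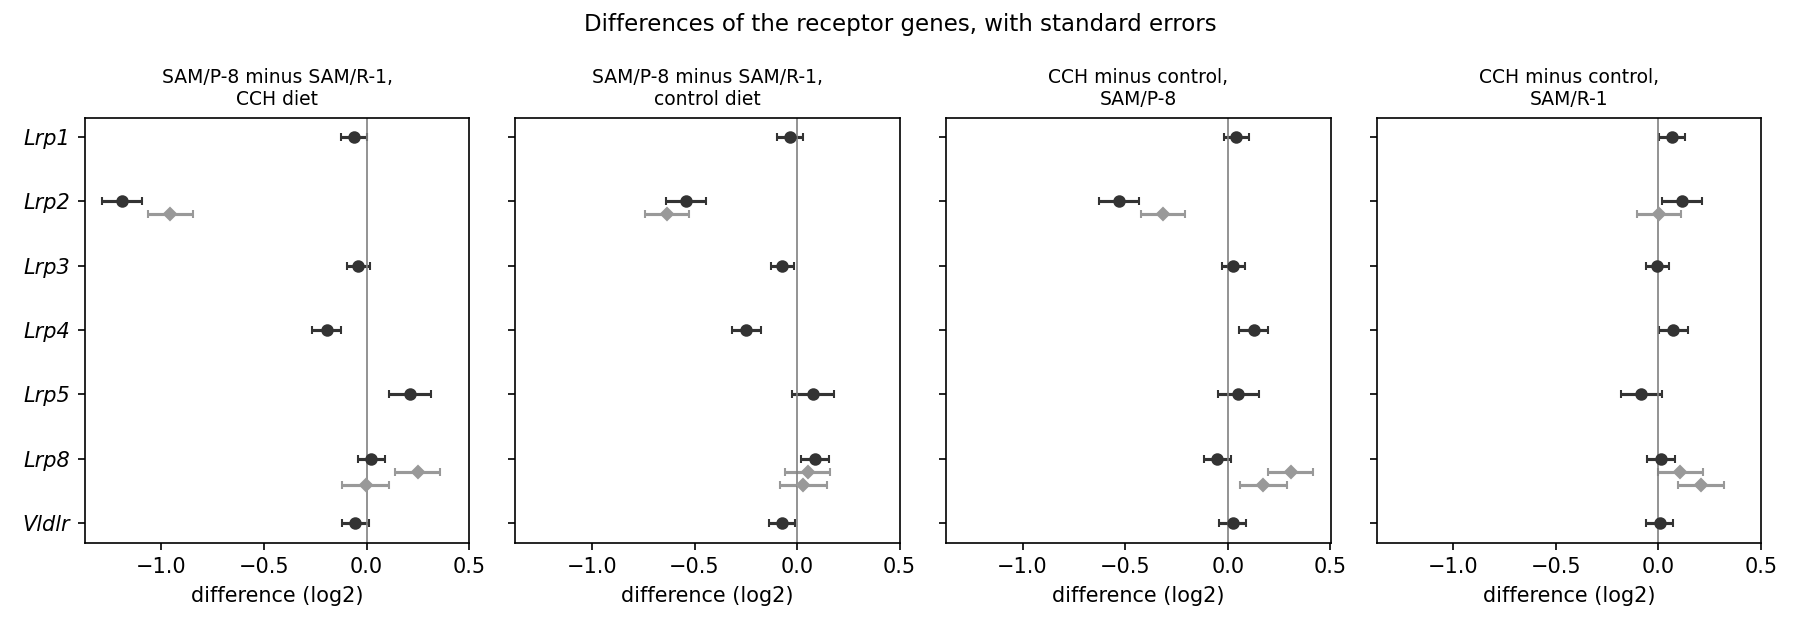
Differences in log2 signal (x axes) with standard errors for the 7 receptor genes that entered the fit (rows), in the 4 comparisons (panels), n = 4 and 4 arrays each. Black points are the brightest probe of a gene and grey diamonds its other probes. Lrp2 lies at -1.19 and -0.54 for the strain differences and -0.53 for CCH in SAM/P-8, and the points of the other genes lie between -0.25 and 0.31.

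Other genes with LDL receptor class repeats gave 2 calls among 6 tested for each strain difference, both higher in SAM/P-8, with a list median of -0.06 on CCH and 0.01 on the control diet. Of all genes, 12.7% passed on CCH and 12.8% on the control diet, in either direction. Lrp12, a receptor-like gene of uncertain ligand, averaged 3.51 ± 0.19 in SAM/P-8 CCH arrays and 3.09 ± 0.03 in SAM/R-1 CCH arrays, a difference of 0.43 ± 0.09 (limma adjusted p = 0.00496). On the control diet it averaged 3.44 ± 0.16 in SAM/P-8 and 3.13 ± 0.05 in SAM/R-1, a difference of 0.31 ± 0.09 (adjusted p = 0.0309). The call on CCH held in all 24 alternatives tried and that on the control diet in 17.

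Among sorting receptors of the VPS10 family and the retromer, which returns receptors from endosomes, 1 of 8 genes passed for each strain difference. The shares over all genes were 12.7% on CCH and 12.8% on the control diet. Vps26b, a retromer subunit, averaged 1.32 ± 0.10 in SAM/P-8 CCH arrays and 0.92 ± 0.06 in SAM/R-1 CCH arrays, and 1.32 ± 0.06 in SAM/P-8 control arrays and 0.87 ± 0.02 in SAM/R-1 control arrays. Its differences of 0.40 ± 0.05 (limma adjusted p = 0.000118) and 0.45 ± 0.05 (adjusted p = 3.18e-05) held in all 24 alternatives, and its other probe gave 0.38 and 0.40. The list medians were 0.01 on CCH and -0.01 on the control diet.

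Of 11 chaperones, adaptors and turnover factors of these receptors, 1 was higher on CCH and 1 lower on the control diet in SAM/P-8. Beside these stand 12.7% and 12.8% of all genes past the test in either direction. Lrpap1, the chaperone known as RAP that keeps family members from binding ligands on their way to the surface, was higher by 0.21 ± 0.05 on CCH (limma adjusted p = 0.0159), but its other probe gave -0.01. The Lrpap1 call held in 21 of 24 alternatives. It was lost with the median of each array as its scale, with the mean over its probes and without SAM/R-1 CCH replicate 4. Cubn, which encodes cubilin, the membrane partner of megalin in the kidney, was lower by -0.36 ± 0.11 on the control diet (adjusted p = 0.0464), with -1.99 ± 0.20 in SAM/P-8 and -1.63 ± 0.06 in SAM/R-1. On CCH its difference was -0.34 ± 0.11 (adjusted p = 0.0625). The Cubn call held in 7 of 24 alternatives.

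Of 13 ligands and partners of Lrp2, 1 was higher on CCH, while 1 was higher and 1, Cubn again, lower on the control diet. All genes passed at 12.7% on CCH and 12.8% on the control diet. Bmp4, a secreted growth factor that binds megalin, was higher in SAM/P-8 by 0.62 ± 0.17 on CCH (limma adjusted p = 0.0226) and by 0.65 ± 0.17 on the control diet (adjusted p = 0.0171). Its means were -3.00 ± 0.21 in SAM/P-8 CCH arrays and -3.62 ± 0.15 in SAM/R-1 CCH arrays, and -3.11 ± 0.35 in SAM/P-8 control arrays and -3.76 ± 0.25 in SAM/R-1 control arrays. The groups overlapped on the control diet and not on CCH, and the call held in 19 of 24 alternatives on CCH and in 21 on the control diet. The list medians were 0.17 on CCH and -0.02 on the control diet.

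Of 9 apolipoproteins and lipid transfer genes, 0 passed on CCH and 1 was lower on the control diet, beside 12.7% and 12.8% of all genes. Apoe, the main apolipoprotein of brain lipoproteins and a ligand of the family, was at 7.33 ± 0.04 in SAM/P-8 CCH arrays and 7.50 ± 0.05 in SAM/R-1 CCH arrays, and at 7.37 ± 0.07 in SAM/P-8 control arrays and 7.55 ± 0.09 in SAM/R-1 control arrays. Its differences were -0.17 ± 0.05 on CCH (limma adjusted p = 0.0595) and -0.18 ± 0.05 on the control diet (adjusted p = 0.0433), and the call on the control diet held in 9 of 24 alternatives.

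In the reelin pathway 0 of 11 genes passed for either strain difference, beside 12.7% of all genes on CCH and 12.8% on the control diet. At an unadjusted p under 0.05 there were 2 for each. The smallest p belonged to Pik3r1, a regulatory subunit of PI3 kinase, on CCH (-0.22 ± 0.09, limma adjusted p = 0.109) and to the adaptor Crk on the control diet (0.19 ± 0.06, adjusted p = 0.0564), and in each case other probes of the gene gave the opposite sign. The agrin partners of Lrp4 had 2 genes tested and 0 calls. Agrn, which encodes agrin, differed by -0.14 ± 0.05 on CCH (adjusted p = 0.102) and -0.11 ± 0.05 on the control diet (adjusted p = 0.217).

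Of 25 Wnt pathway genes tested, 2 were higher and 3 lower in SAM/P-8 on CCH, beside 12.7% of all genes past the test in either direction, and 1 was higher and 1 lower on the control diet, beside 12.8%. The list medians were 0.02 on CCH and 0.08 on the control diet. On CCH the smallest p belonged to Gsk3b, the kinase that marks beta-catenin for destruction (0.44 ± 0.09, limma adjusted p = 0.00481, held in all 24 alternatives). Wnt7a, a ligand, followed with -0.30 ± 0.07 (adjusted p = 0.0138, held in 23 of 24), and Fzd3, a Wnt receptor, with 0.34 ± 0.09 (adjusted p = 0.0241, held in 18 of 24), where its other probe gave 0.03. On the control diet Axin2, a feedback target of the pathway, was lower by -0.29 ± 0.08 (adjusted p = 0.0184, held in 21 of 24) and Fzd8 higher by 0.53 ± 0.16 (adjusted p = 0.0439, held in 10 of 24). Axin2 was lower on CCH too, by -0.26 ± 0.08 (limma adjusted p = 0.0319, held in 17 of 24). Wnt7a differed by 0.10 ± 0.07 on the control diet, and the change of -0.40 ± 0.10 between the diets did not pass (adjusted p = 0.312).

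None of these pathway lists had a gene past the limma test for CCH against control in either line or for the interaction. Few of all genes passed there: 0.788% for CCH in SAM/P-8, 0.104% in SAM/R-1 and 0.134% for the interaction. Nothing particular to the lists is read from this. The smallest adjusted p for CCH in SAM/P-8 was that of Numb, an endocytic adaptor, at 0.35 ± 0.08 (adjusted p = 0.0595). At an unadjusted p under 0.05 for CCH in SAM/P-8 the lists held 1 to 8 genes each, the most in the Wnt list with 8 of 25. The Wnt list median was 0.08 there, beside -0.02 over all genes. The share of all genes at that unadjusted p was not counted. The endothelial marker scores given above differed between the lines beside all of these strain differences, and their part in them was not tested. Lrp12, Cubn, Bmp4, Apoe, Agrn, Wnt7a, Axin2 and Fzd8 had no other usable probe, so the limit given for Lrp4 holds for them too.

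**Figure D5:**
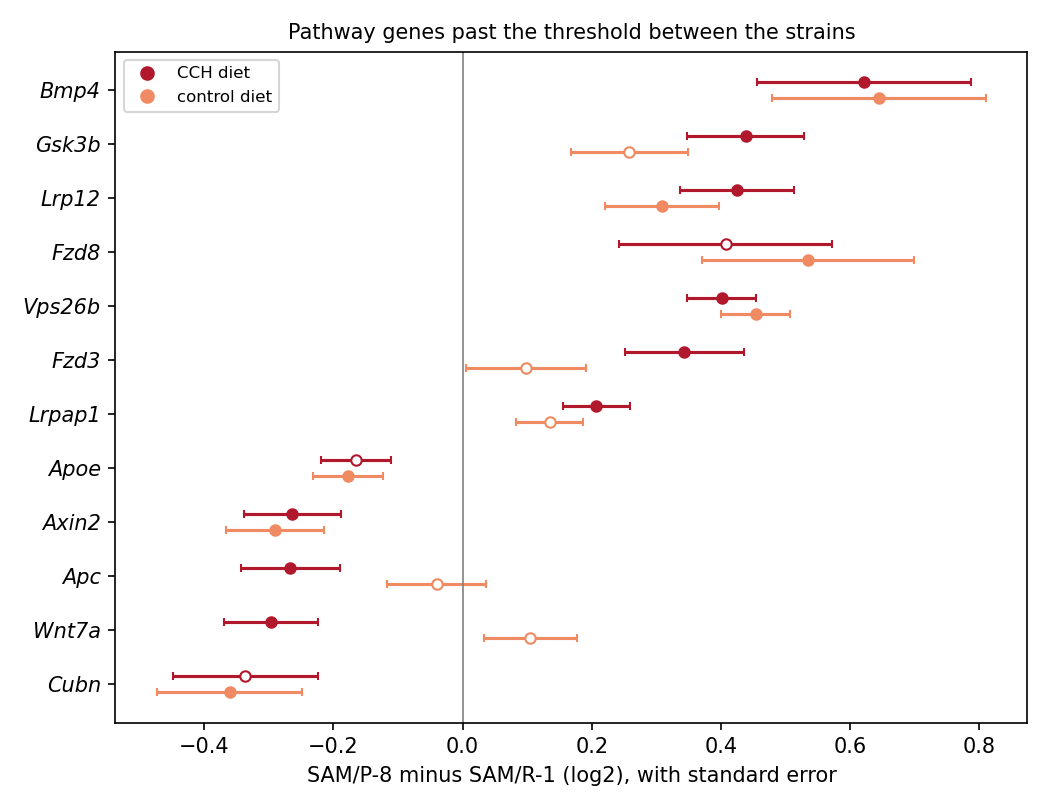
Difference between SAM/P-8 and SAM/R-1 in log2 signal (x axis) with standard errors for 12 pathway genes past the limma threshold on at least 1 diet (rows), n = 4 and 4 arrays. Filled points passed an adjusted p of 0.05 and open points did not. Bmp4 is the highest at 0.62 on CCH and 0.65 on the control diet, and Cubn the lowest on the control diet at -0.36.

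Among 13427 other genes with a value on all arrays, the 8 whose levels followed the main Lrp2 probe most closely over the 16 arrays included Sf3b5, Auh, Rnf181, Hhat, Ndufa12, H2-Ob and Ggps1. Pearson's r ran from 0.945 for Sf3b5, a subunit of the splicing factor SF3b, to 0.926 for Ggps1, a synthase of geranylgeranyl diphosphate. All 8 were lower in SAM/P-8 than SAM/R-1, by sizes from -0.35 for Sf3b5 to -2.26 for H2-Ob on CCH. They were picked for rising and falling with Lrp2, which is lower in SAM/P-8, so this direction follows from the choice. H2-Ob was well above background on 7 of 16 arrays and was kept only through SAM/R-1, where it is higher. The other genes were well above background on all 16. The 16 arrays share the 4 group means, and with those subtracted r ran from 0.649 for Sf3b5 to 0.268 for Ggps1, with 0.554 for Auh, which encodes an enzyme of leucine breakdown. These correlations describe the arrays and carry no test.

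Lrp2 lies on chromosome 2 in the gene order of GRCm38.p6. Of the 20 nearest genes with a usable probe, 10 on each side, 0 passed the limma test between the lines on CCH, beside 12.7% of all genes. Their differences on CCH ran from -0.27 to 0.25. On the control diet 1 was higher in SAM/P-8, Scn2a, which encodes a neuronal sodium channel (0.25 ± 0.07, adjusted p = 0.0395), and 1 lower, Bbs5, of the BBSome of cilia (-0.29 ± 0.09, adjusted p = 0.0448). The differences of the 20 on the control diet ran from -0.29 to 0.35, and 12.8% of all genes passed there. Nothing particular to the surroundings of Lrp2 is read from these counts.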

How the data were processed

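Hippocampal total RNA of 4 groups of 4 samples was hybridised to one-colour Agilent arrays. The deposited files hold processed signals as intensity, background-subtracted and detrended per the file headers by Agilent Feature Extraction 9.5.3.1, the median spot and background intensity, and flags of a kind other than measured values per the file headers. The authors' deposited table is on a log2 scale, centred per probe over the arrays, by steps not given in the sources used here. It correlated with the centred scanner values at 0.99974 or more.

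Signals were taken as log2, the array's 75th percentile over non-control probes was subtracted, and spots of a probe were averaged. Over all arrays 187 non-uniform spots were left out and 2 were saturated. Of 41174 probes, 29009 were kept, those marked well above background by every array of some group. Gene names came from RefSeq accessions (GRCm38.p6 table), which named 24844 probes. The brightest probe represented a gene, giving 13459 genes.

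Group means were fitted to the 16 arrays together with limma 3.58.1 (R 4.3.3), leaving 12 residual degrees of freedom. Benjamini-Hochberg adjustment ran over all probes kept, with 0.05 as the threshold. Slides hold 1 group each, so no slide term could be fitted. Replicate numbers matched the slide position for 16 of 16 arrays. The deviations of same-numbered arrays from their group means correlated between -0.313 and 0.357 over 24 pairs. Arrays of different numbers were not compared in this way, so the check cannot settle pairing. The numbers were not taken to pair the samples. The alternatives were another background correction, other scales, other filters, the authors' table, the mean over a gene's probes, a replicate block, each array left out and, added after the data were seen, the other Lrp2 probe.

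The members, pathway lists and marker lists were chosen with earlier results of these data known. Every member probe is given. From each pathway list up to 3 genes past the threshold with the smallest p are named per comparison, or 1 where none passed, and 8 genes are named by correlation with Lrp2. Some genes that these rules name are not reported here. Neighbouring genes were named because they passed. No sequences are printed.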

Additional observations from a re-analysis of the deposited data

Results flagged for a closer look

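Each probe of the family was looked at in each group for an array whose gap to the nearest of the 3 others took up most of the range of the group. Of 52 groups of 4 arrays, 6 held such an array, where chance alone gives about 1 in 20 groups. Lrp4 read 0.211 in SAM/P-8 control replicate 4, against -0.03 to -0.02 on the others, and this array narrows the strain difference. Lrp1 read 3.66 in SAM/R-1 CCH replicate 2, against 3.49 to 3.50. The other 4 belong to probes near background. Lrp1b read -5.59 in SAM/R-1 control replicate 4, against -6.06 to -6.01. The Lrp2 probe A_51_P174921 read -4.36 in SAM/R-1 control replicate 3, against -8.45 to -8.19. The Lrp2 probe A_52_P460882 read -8.10 in SAM/P-8 CCH replicate 4, against -8.34 to -8.31, and -5.75 in SAM/R-1 control replicate 4, against -8.26 to -8.13.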

How the results depend on the processing

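With 4 arrays a group and each group on its own slide, a slide effect has the same form as a group difference. Lrp2 was dim: 1 of its 4 probes was well above background on all arrays. Its differences kept their sign in every alternative tried, though that for CCH in SAM/R-1 was 0.00 ± 0.11 on the other Lrp2 probe. The alternatives refit the arrays on which Lrp2 was picked, so a kept sign is a description and no support. Leaving out 1 array at a time moved the differences between -0.60 and -0.46 for the strain difference on the control diet, -1.23 and -1.13 on CCH, -0.61 and -0.47 for CCH in SAM/P-8, 0.06 and 0.19 for CCH in SAM/R-1, and -0.73 and -0.59 for the interaction. Normexp background correction gave -0.35, -0.78, -0.11, 0.32 and -0.43 for these 5, and the cause was not tested. The other Lrp2 probe gave -0.96 for the strain difference on CCH, -0.32 for CCH in SAM/P-8 and -0.32 for the interaction, for which the mean over both probes gave -0.48. The number of members other than Lrp2 past the threshold for the strain difference on the control diet, 1 as reported, was 0 with normexp, with the median of each array as its scale and without the filter on dim probes, and ranged from 0 to 1 with 1 array left out. On CCH, 0 as reported, it ranged from 0 to 1, being 1 (Lrp5) without SAM/P-8 CCH replicate 3. A replicate block was also fitted, although the numbers were not taken to pair the samples. With it the Lrp2 differences were the same (-1.19 on CCH). The probes past the threshold for CCH in SAM/P-8 were then 132 in place of 250. That count was 2 with normexp, 136 with quantile normalization, 126 with the median scale and 152 without the filter, and ranged from 72 (without SAM/P-8 control replicate 3) to 438 (without SAM/P-8 control replicate 1) with 1 array left out. For CCH in SAM/R-1 the range was 2 (without SAM/R-1 control replicate 3) to 43. For the strain differences normexp left 841 of 3909 probes on CCH and 960 of 4004 on the control diet. Of 18 pathway calls, 4 held in all 24 alternatives, and normexp ended all others but that of Lrpap1. Apc, lower on CCH by -0.27, was 0.0020 when all its probes were averaged.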

Other observations

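Spink8, a marker of hippocampal pyramidal neurons, was higher in SAM/P-8 than SAM/R-1 on both diets, by 1.67 ± 0.15 on CCH (limma adjusted p = 1.54e-06) and 1.78 ± 0.15 on the control diet (adjusted p = 6.99e-07), and was the only 1 of 13 hippocampal neuron markers past the test. The neuron list medians were -0.09 on CCH and 0.08 on the control diet. Spink8, Gfap and Foxc1 had no other usable probe, so the limit given for Lrp4 holds for them. Beside this list and the marker lists below stand 12.7% of all genes past the test on CCH and 12.8% on the control diet. Gfap, the astrocyte filament protein, was higher in SAM/P-8 by 0.49 ± 0.09 on CCH (adjusted p = 0.00285) and 0.34 ± 0.09 on the control diet (adjusted p = 0.0268). It was the 1 of 10 astrocyte markers past the test on each diet, and the list medians were -0.03 on CCH and 0.10 on the control diet. Of 12 microglial markers, 5 were higher in SAM/P-8 on CCH and 2 on the control diet. The microglia list medians were 0.14 on CCH, beside -0.02 over all genes, and 0.05 on the control diet, beside -0.01. Itgam, an integrin of microglia, gave 0.43 ± 0.08 on CCH (adjusted p = 0.00148) and 0.25 ± 0.08 on the control diet (adjusted p = 0.0413).

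Foxc1, a regulator of meningeal fibroblasts and pericytes, was higher in SAM/P-8 by 0.65 ± 0.17 on CCH (adjusted p = 0.0192) and 0.69 ± 0.17 on the control diet (adjusted p = 0.0118). Of 13 markers of meninges and fibroblasts, 3 and 2 were higher on these diets. For CCH against control 0 of the markers in any of these 4 lists passed the limma test in either line. Over all genes 0.788% passed in SAM/P-8 and 0.104% in SAM/R-1. At an unadjusted p under 0.05 the most were 8 of 13 hippocampal neuron markers in SAM/P-8. The neuron list median was -0.34 there, beside -0.02 over all genes. The share of all genes at that unadjusted p was not counted.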
